A study of Mus musculus with 17 samples.

Results

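Macrophages that lack SOCS3 were compared with macrophages that have it after 400 min of interleukin-6 (IL-6), on 6 of the 17 arrays of the study. The 6 arrays were taken by the genotype, cytokine and time in their titles: 3 of SOCS3-/- cells and 3 of SOCS3+/+ cells, with the replicate number as a block in the test. The question was which genes have a late level under IL-6 that depends on SOCS3. Per the labels, recipient mice were irradiated and rebuilt with the fetal liver of embryos that were either SOCS3+/+ or SOCS3-/-, and their donor-derived marrow was grown into macrophages. No label says whether host cells remained in the cultures. Both 400 min groups received IL-6 at 10 ng/ml. The other 11 arrays, which entered the fit and serve here as the earlier states of the same genotypes, were unstimulated SOCS3+/+ cells (n = 2), unstimulated SOCS3-/- cells (n = 3), and cells of each genotype after 100 min of IL-6 at the same dose (n = 3 each). The labels used here give no age, sex or strain. The replicates were numbered but not said to be separate mice, donors or cultures, so a p-value here covers the spread of these arrays alone, and that spread may be technical.

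IL-6 binds its receptor together with the shared subunit gp130, and the attached JAK kinases then phosphorylate the transcription factor STAT3. STAT3 induces Socs3 itself, and the SOCS3 protein docks onto gp130, blocks the JAK kinases and ends the signal. STAT dimers bind DNA elements called GAS. Interferon-gamma is best known for inducing IRF1, guanylate-binding proteins and antigen-presentation genes. In macrophages SOCS3 is known as a brake on IL-6 but not on IL-10, whose receptor lacks its docking site.

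The array labelled SOCS3-/- at 400 min, replicate 3, did not match its label as closely as the others. Socs3 was read by 2 probe sets, the groups of short probes that report a transcript on this kind of array. Deposited intensities on the brighter one under IL-6 were 2441.2, 2003.8 and 2104.4 in SOCS3+/+ replicates 1 to 3 at 400 min, and 45.2, 77.4 and 883.7 in SOCS3-/- replicates 1 to 3. The other probe set read 1333.0, 1089.7 and 1301.6 against 110.7, 78.2 and 784.3. All 3 SOCS3-/- arrays lay below all SOCS3+/+ arrays on both probe sets, but replicate 3 of the SOCS3-/- cells lay far above its own group. In the fit the Socs3 difference, SOCS3-/- minus SOCS3+/+ on the log2 scale used throughout, was -3.85 (SE 0.94, adjusted p = 0.117) and -2.65 (SE 0.70, adjusted p = 0.162) on these probe sets. Without that array it was -5.24 (SE 0.70, adjusted p = 0.0119) and -3.53 (SE 0.63, adjusted p = 0.0328). No label or file header says whether these probes lie in the deleted part of the gene. Results below therefore come with and without the array labelled SOCS3-/- 400 min replicate 3, called the third SOCS3-/- array. At 100 min SOCS3+/+ replicate 3 also lay away from its group. It read 429.5 against 2647.6 and 1911 in replicates 1 and 2 on the brighter probe set. On the other it read 479.7 against 1307.6 and 1214.6. SOCS3-/- replicate 3 at 100 min lay above its own group, at 160.2 against 78.3 and 77.6 in replicates 1 and 2 on the brighter probe set. On the other it read 319.7 against 148.5 and 109.8. Both of these 100 min arrays were kept in the main fit and so in its comparisons with 100 min.

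Replicate 3 also stood apart over the whole series. On the first principal component of the tested probe sets, which held 12.7% of the variance, replicates 1 and 2 of the 6 groups lay between -30.3 and 2.27, and the 5 replicate 3 arrays between 0.89 and 58.1. At 400 min the scores were -19.8, -13.9 and 26.6 in SOCS3+/+ cells and -30.3, -29.9 and 0.89 in SOCS3-/- cells. The genotypes also differed in sex-linked transcripts: the Y-linked gene Eif2s3y read 628, 720 and 374 in SOCS3+/+ cells and 7.67, 70.1 and 81.9 in SOCS3-/- cells, and the X-inactivation RNA Xist read 41.0, 72.8 and 11.1 against 254, 232 and 408. Donor sex and genotype can therefore not be told apart on these arrays. Genes on X and Y were left out of the named genes and gene lists that follow. Counts and medians over probe sets include them unless stated.

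The cells read as macrophages in both groups. The summed normalized intensity of 22 macrophage markers was 229069 to 236467 on the SOCS3+/+ arrays and 206531 to 230512 on the SOCS3-/- arrays, and 0 of the 22 were called different. Without the third SOCS3-/- array 1 of the 22 was called higher. The SOCS3-/- arrays lay wholly below in 5 of the 22 (22.7%) and wholly above in 1, against 8.14% below and 7.41% above over all genes tested; the part of this in the results was not tested. Csf1r, the receptor for the macrophage growth factor CSF1, read 25598, 23184 and 19580 in SOCS3+/+ cells and 14477, 14477 and 13433 in SOCS3-/- cells, which did not overlap but were not called (log2 difference -0.68, adjusted p = 0.193). C1qa, a part of the first complement component made by macrophages, did not overlap either and was not called, at 8423, 10269 and 6567 against 5860, 5950 and 2122 (adjusted p = 0.22). Summed markers of other cells were far lower. They came to 3386 to 5139 (SOCS3+/+) and 2533 to 2983 (SOCS3-/-) for 16 B cell markers, 2064 to 2452 and 2130 to 2560 for 20 T and NK cell markers, and 2783 to 4077 and 3529 to 4481 for 21 neutrophil and precursor markers. Erythroid and megakaryocyte markers summed to 3168 to 3806 and 3286 to 4960, mast cell and basophil markers to 1839 to 2078 and 2018 to 2078, fibroblast markers to 3529 to 4034 and 3734 to 3950, and dendritic cell and osteoclast markers to 3329 to 5069 and 4933 to 5305. With all 6 arrays none of these 7 lists had a called member, and no member of any of them lay at the intensity floor of 22 on all 6 arrays. Without the third SOCS3-/- array 1 B cell marker, Ighm, was called lower, and no member of the other lists was called. The B cell sums of the genotypes did not overlap. SOCS3-/- arrays lay wholly above in 3 of 10 tested erythroid and megakaryocyte markers (30%) and wholly below in 0. For 13 tested T and NK cell markers they lay wholly above in 1 (7.69%) and wholly below in 2 (15.4%). Each other list had at most 1 member wholly above or below. The part of these lists in the results was not tested. Since these are bulk RNA samples, fewer cells of a type and less RNA per cell cannot be told apart.

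Of 9871 probe sets tested, 57 (0.577%) were called at 400 min at a Benjamini-Hochberg adjusted p under 0.05 in limma: 45 higher (0.456%) and 12 lower (0.122%) in SOCS3-/- cells. Unadjusted p-values under 0.05 were found for 1083 probe sets, or 11%. With a fit to the 6 arrays alone they were found for 818 (8.29%), and 0 were called by limma. Outside X and Y the calls named 38 genes that were higher and 8 that were lower, and on X and Y they named 1 higher and 2 lower. The 12 largest rises were the chemokines Ccl7, Ccl2 and Ccl12, the interferon-induced GTPases Iigp1, Gbp2, Gbp3, Ifi47 and Gbp7, and Ifi202b, Selp, Ch25h and Socs1. The groups did not overlap for 44 of the 45 higher and 11 of the 12 lower calls. Over all probe sets the SOCS3-/- arrays lay wholly above the SOCS3+/+ arrays for 7.2% and wholly below for 7.55%. Without the third SOCS3-/- array 101 probe sets (1.02%) were called, 59 higher (0.598%) and 42 lower (0.425%), and 44 of the 57 were among them. All 57 kept their direction without that array, and 13 lost their call. Without the replicate number as a block 22 of the 57 lost their call, 15 higher and 7 lower.

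**Figure D1:**
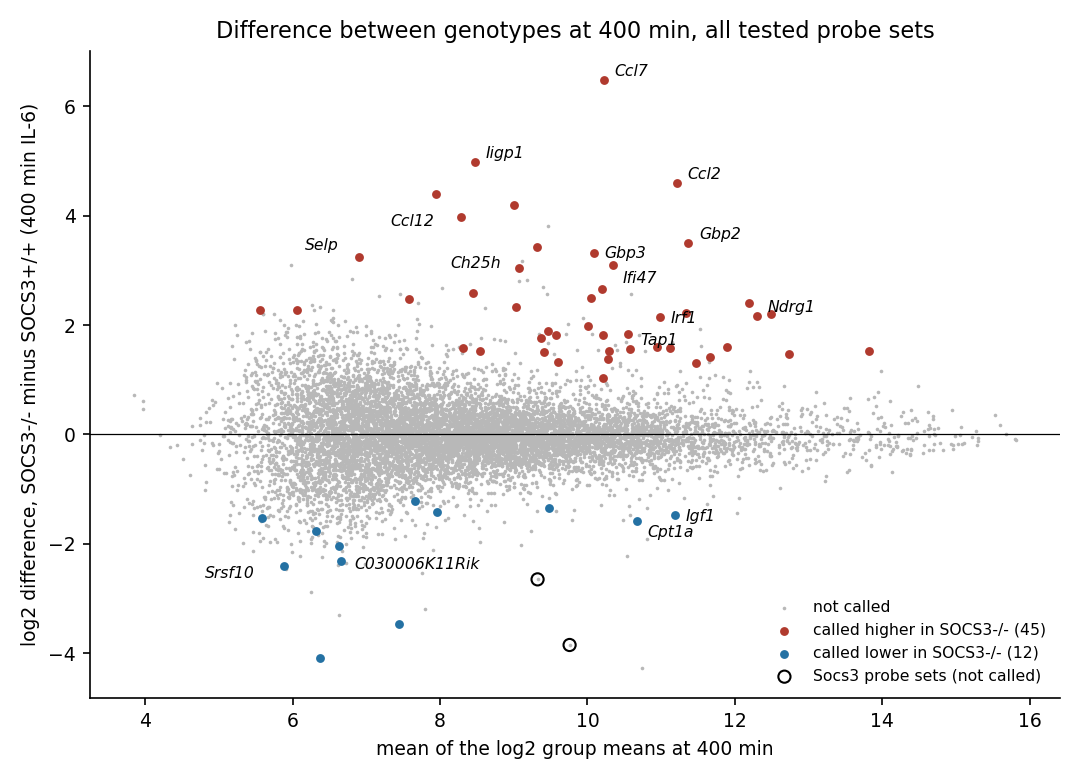
Each point is 1 of the 9871 tested probe sets, with the mean of the log2 group means at 400 min on the horizontal axis and the log2 difference between genotypes on the vertical axis. Red points were called higher in SOCS3-/- cells (45), blue points lower (12), and both Socs3 probe sets are circled; Ccl7 stands highest at 6.48.

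Chemokines that attract monocytes were higher in SOCS3-/- cells, and Ccl7 had the largest difference of all called probe sets. Ccl7, which encodes the chemokine MCP-3, read 143, 262 and 7.24 in SOCS3+/+ replicates 1 to 3 and 14575, 13737 and 2930 in SOCS3-/- replicates 1 to 3. Every SOCS3-/- array was more than an order of magnitude above every SOCS3+/+ array, and replicate 3 was the lowest array in both genotypes. The log2 difference was 6.48 (SE 0.27, adjusted p = 3.85e-07), 89.3-fold with replicate 3 of the SOCS3+/+ cells set to the floor, and 6.39 (adjusted p = 1.1e-05) without the third SOCS3-/- array. Ccl2, which encodes MCP-1 and signals through the same receptor CCR2, read 595, 681 and 164 against 14808, 16442 and 3910, a 24.3-fold difference (log2 4.6, SE 0.57, adjusted p = 0.005; 4.68 without the third SOCS3-/- array). Within replicate numbers the Ccl2 differences were 4.64, 4.59 and 4.58, so the low replicate 3 levels moved together in both genotypes. Ccl12, a mouse relative of Ccl2, read 183, 41.8 and 43.1 against 1238, 1109 and 925 (log2 difference 3.97, SE 0.62, adjusted p = 0.0145).

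Chemokines of other receptors also rose. Ccl4, an attractant of monocytes and T cells, read 718, 554 and 309 against 1666, 1745 and 2583 (3.94-fold, adjusted p = 0.0159). Cxcl10, an interferon-induced attractant of T cells through CXCR3, was even across replicates in each genotype, at 243, 261 and 195 against 1113, 1155 and 1239 (5.05-fold, log2 difference 2.34, SE 0.42, adjusted p = 0.0287). Of 28 chemokine and receptor genes tested, 5 were called higher and 0 lower, with a median log2 difference of 0.47 against -0.03 over all 6851 genes tested outside X and Y. SOCS3-/- arrays lay wholly above in 9 of the 28 (32.1%), against 7.41% of all genes tested. Ccl8 had a log2 difference of 3.82 but was not called (adjusted p = 0.0586), and the receptors Ccr1 (1.69, adjusted p = 0.221) and Ccr2 (-0.44, adjusted p = 0.826) were not called either.

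Interferon-induced GTPases were higher as a family. These proteins gather on the vacuoles of intracellular microbes, and in macrophages they are best known as products of interferon-gamma. Of 9 members tested, all 9 lay wholly above the SOCS3+/+ arrays and 7 were called, with a median log2 difference of 3.11. Over all genes tested 7.41% lay wholly above. The list held 21 genes, and the rest had no probe set that named them alone. Gbp2 read 893, 947 and 546 in SOCS3+/+ cells and 8024, 7891 and 10522 in SOCS3-/- cells, an 11.3-fold difference (log2 3.50, SE 0.37, adjusted p = 0.00167). Here the third SOCS3-/- array was the highest, and without it the difference was 3.06 (adjusted p = 0.00589). Gbp3 read 410, 218 and 419 against 3408, 4220 and 2550 (9.92-fold, adjusted p = 0.00615), and Gbp7 read 395, 434 and 575 against 3236, 3020 and 2602 (6.36-fold, adjusted p = 0.0178; 0.0532 without the third SOCS3-/- array).

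The immunity-related GTPases followed the guanylate-binding proteins. Iigp1 (Irga6) read 160, 21.9 and 38.4 against 1245, 1310 and 2611, a 31.6-fold difference (log2 4.98, SE 0.54, adjusted p = 0.00167), and a second probe set gave 21.2-fold (adjusted p = 0.0131). Ifi47 (Irgd) read 479, 651 and 233 against 4295, 4253 and 2555 (8.63-fold, log2 3.11, SE 0.31, adjusted p = 0.00126). The regulatory members Irgm1 and Irgm2 differed less, by 3.38-fold (308, 400 and 377 against 1157, 1280 and 1210) and 3.52-fold (622, 725 and 553 against 2248, 1919 and 2524). Igtp (log2 2.02, adjusted p = 0.0575) and Gbp2b were the members not called. Gbp2b read 114, 210 and 124 against 3010, 2934 and 249, so that the third SOCS3-/- array lay near the SOCS3+/+ arrays (log2 3.18, adjusted p = 0.0505; 3.56, adjusted p = 0.048, without it). A probe set shared by the T-cell specific GTPases Tgtp1 and Tgtp2 read 149, 125 and 89.8 against 2343, 2088 and 2128 (18.4-fold, adjusted p = 0.000925). These families hold close paralogs, and cross-hybridization between members was not tested.

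**Figure D2:**
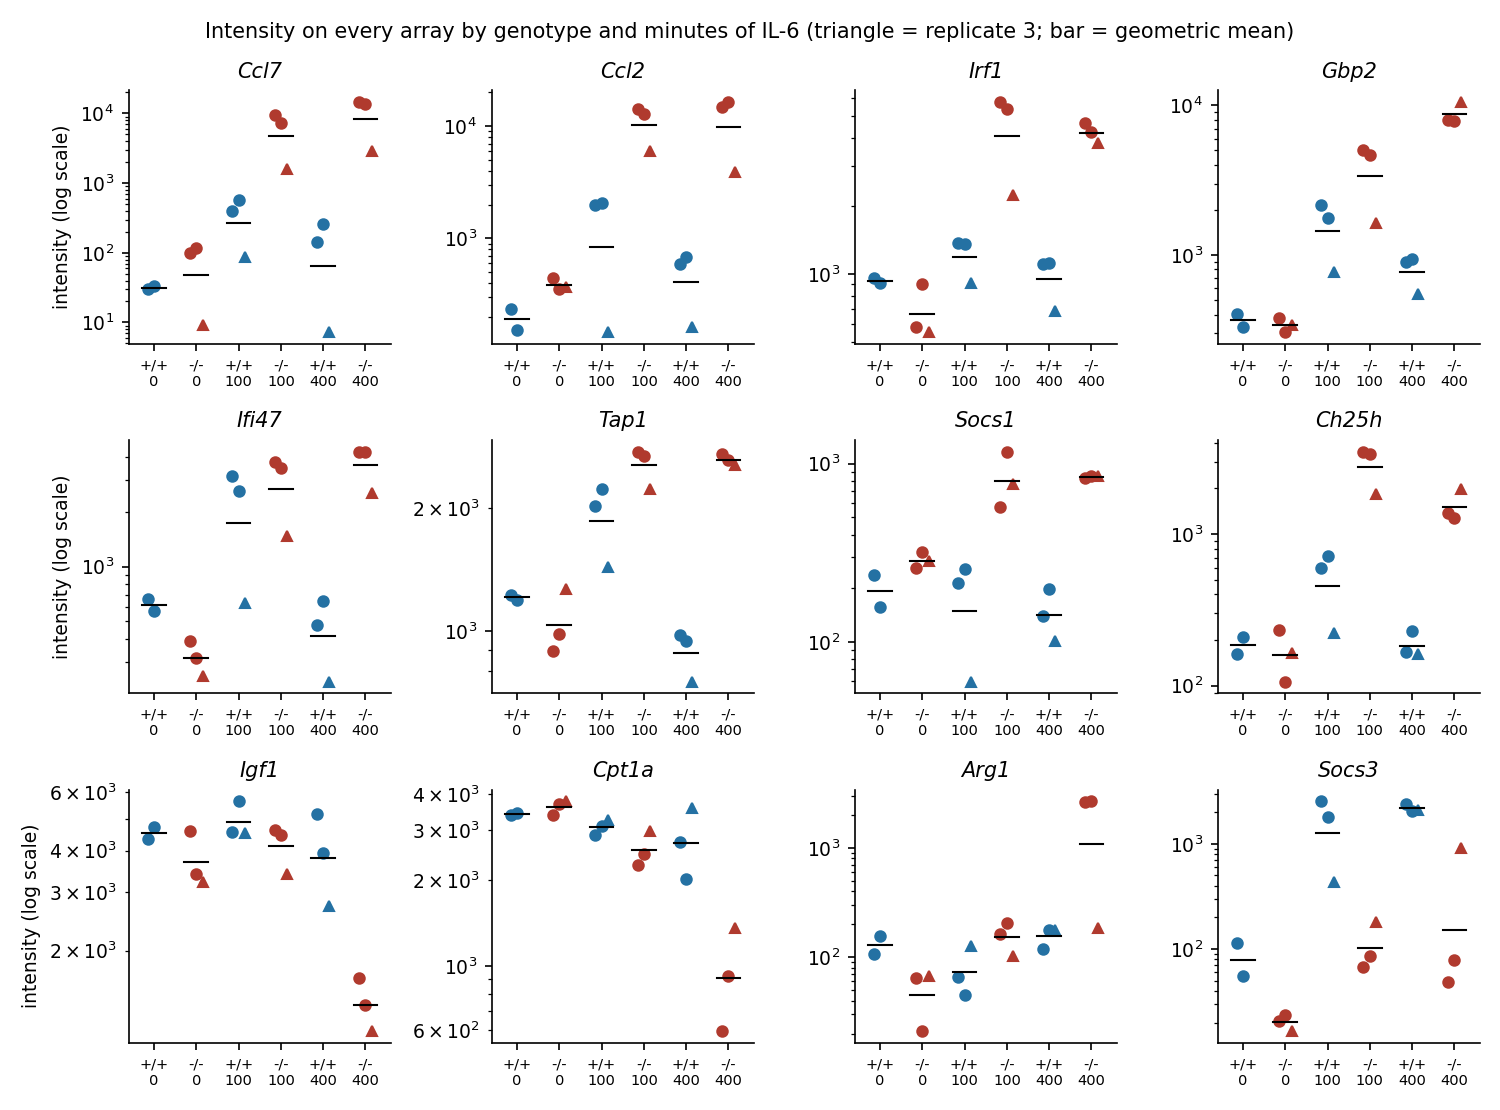
Normalized intensity (log scale) of 12 genes on each of the 17 arrays, by genotype (+/+ blue, -/- red) and minutes of IL-6; triangles are replicate 3 and bars are geometric means. At 400 min the red points of Ccl7, Ccl2, Irf1, Gbp2, Ifi47, Tap1, Socs1 and Ch25h lie above all blue points and those of Igf1 and Cpt1a below, while the third SOCS3-/- array leaves its group for Arg1 and Socs3.

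Irf1 and genes of the interferon response were higher beside the GTPases. Irf1, an interferon-induced transcription factor that binds interferon-stimulated promoters, read 1108, 1116 and 689 in SOCS3+/+ cells and 4667, 4244 and 3788 in SOCS3-/- cells. The difference was 4.45-fold (log2 2.15, SE 0.25, adjusted p = 0.00242; 1.98, adjusted p = 0.0119, without the third SOCS3-/- array). Tap1, a subunit of the peptide transporter that loads MHC class I, read 977, 946 and 752 against 2713, 2623 and 2552 (2.97-fold, log2 1.57, SE 0.21, adjusted p = 0.0084). Tap1 was the only called one of 18 MHC class I and immunoproteasome genes, whose median log2 difference was 0.21. The immunoproteasome subunits Psmb10 (0.87, adjusted p = 0.156), Psmb9 (0.70, adjusted p = 0.213) and Psmb8 (0.50, adjusted p = 0.402) were not called, and neither was any of 15 MHC class II and costimulation genes (median 0.06).

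Of 30 type I interferon-stimulated genes tested, 6 were called higher and 0 lower, and the median log2 difference was 0.92. SOCS3-/- arrays lay wholly above in 18 of the 30 (60%), against 7.41% of all genes tested. Without the third SOCS3-/- array 3 of the 30 were called. Ifi202b, a DNA-binding protein of the p200 family, read 109, 50 and 600 against 1438, 1642 and 1729 (10.8-fold, adjusted p = 0.0421; 0.074 without the block), so the SOCS3+/+ spread was wide and the SOCS3-/- spread was narrow. Plscr1, an interferon-induced membrane protein, read 422, 340 and 416 against 2102, 1406 and 905 (3.55-fold, adjusted p = 0.0232). The ubiquitin-like modifier Isg15 read 1755, 1526 and 714 against 3783, 4106 and 3308 (log2 difference 1.58, adjusted p = 0.0355; 0.0906 without the third SOCS3-/- array and 0.128 without the block). Trim30a (2.83-fold) and Ifi204 (2.67-fold) were called as well, but neither without the third SOCS3-/- array (adjusted p = 0.055 and adjusted p = 0.0586) or without the block (adjusted p = 0.128 and adjusted p = 0.374). The other members included antiviral genes with values on the same side that were not called, such as Ifit2 (log2 2.56, adjusted p = 0.0859), Ifit1 (1.67, adjusted p = 0.186) and Mx1 (1.33, adjusted p = 0.466).

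Among 22 interferon regulatory factors and interferon-gamma targets 3 were called higher: Irf1, Cxcl10 and Socs1, with a list median of 0.65. With each gene at its brightest probe set, as in the lists, 38 of all 6851 genes tested were called higher and 7 lower. SOCS3-/- arrays lay wholly above in 8 of the 22 (36.4%) and wholly below in 2 (9.09%), against 7.41% and 8.14% of all genes tested. Irf7 (1.09, adjusted p = 0.162), Irf8 (0.32, adjusted p = 0.706), Irf5 (-0.33, adjusted p = 0.578) and Irf9 (-0.16, adjusted p = 0.826) were not called. Casp4, the inflammatory caspase that senses lipopolysaccharide in the cytosol, read 178, 174 and 470 against 2000, 1968 and 1011 and narrowly missed the call (6.49-fold, adjusted p = 0.0569).

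Promoters of the called genes were searched for the short elements that STAT and interferon regulatory factors are known to bind. The windows were the 250 bases before the transcription start in RefSeq's GRCm38.p6 table, searched on both strands for the GAS letters TTCNNNGAA and the interferon-stimulated response element (ISRE) as GAAA, any 2 bases and GAAA again. A window was found for 29 of the 38 genes called higher and for 6 of the 8 called lower. A GAS match was present for 7 of the 29 (24.1%) and an ISRE match for 11 of the 29 (37.9%), and 16 (55.2%) had either. Among all 27025 genes with a window the shares were 8.13%, 3.46% and 11.1%, and among the 5479 tested genes with a window they were 7.25%, 3.39% and 10.2%. The 6 genes called lower that had a window held neither. So few windows cannot tell this from the 10.2% among tested genes. A gene counted if any of its windows held a match. The paralogs share ancestry, so their windows are not independent. Windows that show the placement of these letters are printed 5′ to 3′, with matches in capitals, for the transcription factor, 3 GTPases and the inhibitor that rose, and for Igf1 as a window of a gene called lower with no match.
Irf1, chr11:53769764-53770013, plus strand: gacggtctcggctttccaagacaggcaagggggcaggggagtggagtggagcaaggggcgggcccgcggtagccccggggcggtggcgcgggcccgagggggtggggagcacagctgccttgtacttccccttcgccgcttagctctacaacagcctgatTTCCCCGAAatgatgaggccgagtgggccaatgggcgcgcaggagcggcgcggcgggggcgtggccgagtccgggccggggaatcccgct
Gbp2, chr3:142620413-142620662, plus strand: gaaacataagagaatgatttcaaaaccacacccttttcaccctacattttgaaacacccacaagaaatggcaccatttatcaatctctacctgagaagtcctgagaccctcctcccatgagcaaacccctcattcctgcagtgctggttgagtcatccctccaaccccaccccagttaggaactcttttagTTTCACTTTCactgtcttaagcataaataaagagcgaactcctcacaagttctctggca
Gbp3, chr3:142559794-142560043, plus strand: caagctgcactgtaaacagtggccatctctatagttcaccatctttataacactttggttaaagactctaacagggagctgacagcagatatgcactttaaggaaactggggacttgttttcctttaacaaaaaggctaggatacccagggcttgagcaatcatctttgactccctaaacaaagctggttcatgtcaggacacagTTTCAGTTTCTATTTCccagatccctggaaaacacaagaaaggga
Irgm1, chr11:48871421-48871670, minus strand: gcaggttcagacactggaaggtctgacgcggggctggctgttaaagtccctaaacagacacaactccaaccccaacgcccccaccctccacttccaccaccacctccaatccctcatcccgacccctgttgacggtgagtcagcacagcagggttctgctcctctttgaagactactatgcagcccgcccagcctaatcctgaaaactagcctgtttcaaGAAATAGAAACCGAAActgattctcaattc
Socs1, chr16:10785537-10785786, minus strand: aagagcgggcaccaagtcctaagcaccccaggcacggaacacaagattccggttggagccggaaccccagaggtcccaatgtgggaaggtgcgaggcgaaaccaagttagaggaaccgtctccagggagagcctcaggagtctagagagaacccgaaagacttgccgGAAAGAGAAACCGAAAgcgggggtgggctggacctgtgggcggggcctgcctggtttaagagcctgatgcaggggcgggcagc
Igf1, chr10:87860861-87861110, plus strand: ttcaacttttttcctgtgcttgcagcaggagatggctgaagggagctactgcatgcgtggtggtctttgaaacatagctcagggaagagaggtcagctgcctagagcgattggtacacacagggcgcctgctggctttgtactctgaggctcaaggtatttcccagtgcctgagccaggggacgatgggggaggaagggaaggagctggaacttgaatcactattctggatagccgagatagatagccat
In Irf1 the capitals mark a GAS match that begins 90 bases before the start, and in Gbp2 a single ISRE match 59 bases before it. Gbp3, Irgm1 and Socs1 each hold 2 overlapping ISRE matches, which begin 45, 30 and 83 bases before the start. Every printed window of a gene called higher holds a match. The windows of Ifi47, Selp, Tap1 and Ch25h, also called higher, held neither element. Irf1 and Gbp3 had 2 windows each, and the one with most matches is printed.

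Among feedback inhibitors and parts of the IL-6 pathway only Socs1 was called with all 6 arrays. Socs1, a relative of Socs3 that inhibits JAK kinases and restrains interferon-gamma signalling, read 140, 197 and 100 in SOCS3+/+ cells and 828, 848 and 852 in SOCS3-/- cells. The SOCS3-/- arrays were nearly level, and the difference was 5.99-fold (log2 2.58, SE 0.42, adjusted p = 0.0178; 2.34, adjusted p = 0.0538, without the third SOCS3-/- array). It was the only one of 14 SOCS family members and other inhibitors to be called, and the list median was 0.13. Usp18, which restrains interferon receptor signalling, had a log2 difference of 1.16 (adjusted p = 0.101), Ptpn2 0.58 (adjusted p = 0.356), and Cish -0.45 (adjusted p = 0.736). None of 24 receptor and JAK-STAT genes was called (median 0.15). Il6st, which encodes gp130, read 414, 343 and 214 against 685, 951 and 441 on the probe set with the smaller p-value (2.11-fold, adjusted p = 0.0565). Its brighter probe set, which entered the list, was not called either. The values were 0.36 for Stat3 (adjusted p = 0.495), -0.16 for Il6ra (adjusted p = 0.951) and -0.04 for Jak1 (adjusted p = 0.978). Jak2 read 352, 238 and 315 against 992, 955 and 191, and was called without the third SOCS3-/- array (1.66, adjusted p = 0.0354).

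Of 35 genes known as targets of STAT3, IL-6 or IL-10, 7 were called higher and 0 lower. SOCS3-/- arrays lay wholly above in 17 of the 35 (48.6%), against 7.41% of all genes tested. The list median was 0.63, and 0.64 without the third SOCS3-/- array. The 7 were Ccl2, Ch25h, Saa3, Fcgr2b, Fgl2, Irf1 and Bcl2l1, several of which are also interferon targets. Ch25h, which makes the antiviral oxysterol 25-hydroxycholesterol, read 166, 230 and 162 against 1374, 1271 and 1991 (8.24-fold, log2 3.04, SE 0.43, adjusted p = 0.00955). Fcgr2b, the inhibitory Fc receptor, read 905, 1575 and 4097 against 8061, 7863 and 13818 (5.31-fold, adjusted p = 0.0193), with replicate 3 highest in both genotypes. The acute phase gene Saa3 read 225, 165 and 869 against 1105, 868 and 6047. SOCS3-/- replicate 2 lay level with SOCS3+/+ replicate 3, so the groups overlapped, while the differences within replicate numbers were 2.29, 2.39 and 2.80 (5.64-fold, adjusted p = 0.0178). Without the replicate number in the model 4 of the 7 lost their call: Saa3 (adjusted p = 0.536), Bcl2l1 (adjusted p = 0.382), Fgl2 (adjusted p = 0.354) and Fcgr2b (adjusted p = 0.0716). Bcl2l1, the survival gene that encodes BCL-XL, read 811, 1124 and 559 against 1905, 2049 and 1131 (2.05-fold, adjusted p = 0.0162), and Fgl2 was 4.65-fold higher (adjusted p = 0.0178). Fos (-1.07, adjusted p = 0.316), Cebpd (-0.16, adjusted p = 0.866) and Il10 (1.49, adjusted p = 0.375) were not called.

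Jun, a subunit of the AP-1 transcription factor, was the only one of 37 immediate early genes to be called, at 295, 264 and 124 against 679, 630 and 534 (2.87-fold, adjusted p = 0.0159; 0.192 without the block). The list median was 0.08. Wholly above the SOCS3+/+ arrays lay 8 genes (21.6%) and wholly below 6 (16.2%), against 7.41% and 8.14% of all genes tested. In the adhesion and matrix list 2 of 28 genes were called, both higher. In that list 5 genes (17.9%) lay wholly above and 1 (3.57%) wholly below, against the same 7.41% and 8.14% of all genes tested. Selp encodes P-selectin, an adhesion receptor for leukocytes best known from platelets and endothelium, and read 60.2, 25.5 and 33.8 against 311, 440 and 328 (9.53-fold, adjusted p = 0.0131). Mmp13, a collagenase, read 127, 51.1 and 63.8 against 626, 527 and 217 (5.57-fold, adjusted p = 0.0131; 0.0784 without the block).

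Other genes called higher belonged to no list and were chosen for naming after their values were seen. The hypoxia- and stress-responsive gene Ndrg1 read 2713, 2571 and 1889 against 11826, 11249 and 8841 on one probe set (4.47-fold, adjusted p = 0.000928), and a second gave 4.62-fold. The endocytic adaptor Dab2 was called on 3 probe sets, at 2.87-fold, 3.04-fold and 3.04-fold. Nampt, the enzyme that recycles nicotinamide to NAD, was 2.89-fold higher (adjusted p = 0.00955). Cdkn2d, an inhibitor of cyclin-dependent kinases, was 2.48-fold higher (adjusted p = 0.0131). Bzw2 (3.73-fold), Rnaseh1 (4.87-fold), Sfn (4.85-fold), Snx2 (2.79-fold), Mcoln2 (2.59-fold) and Gm9706 (3.01-fold) completed the 38 genes. Mcoln2 and Gm9706 lost their call without the third SOCS3-/- array (adjusted p = 0.0682 and adjusted p = 0.0974). Cdkn2d, Snx2, Mcoln2, Gm9706 and 1 of the 3 Dab2 probe sets lost it without the block.

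Genes called lower in SOCS3-/- cells were fewer and differed less. Igf1, an insulin-like growth factor that macrophages secrete, read 5151, 3944 and 2722 in SOCS3+/+ cells and 1650, 1375 and 1143 in SOCS3-/- cells (2.77-fold lower, log2 difference -1.47, SE 0.20, adjusted p = 0.0084; -1.47 without the third SOCS3-/- array). A second Igf1 probe set showed overlapping groups (0.04, adjusted p = 0.978), so the probe sets of this gene disagreed. Cpt1a, the enzyme that admits fatty acids to mitochondria for oxidation, read 2733, 2025 and 3578 against 593, 925 and 1365 (2.98-fold lower, log2 difference -1.57, SE 0.24, adjusted p = 0.0131; -1.77 without the third SOCS3-/- array). Both genes were well above the floor on every array. The uncharacterized C030006K11Rik read 268, 188 and 214 against 41.4, 35.1 and 61.2 (4.95-fold lower, adjusted p = 0.0084).

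The remaining 5 lower calls all lost their call without the third SOCS3-/- array, and all but Srsf10 also lost it without the block. Arap3, a regulator of small GTPases, read 443, 467 and 268 against 229, 165 and 78.5 (adjusted p = 0.0232; 0.0531 without the third SOCS3-/- array). Sh3bp5, an adaptor of the kinase BTK, read 356, 212 and 371 against 147.8, 127 and 119 (adjusted p = 0.0249; 0.0586 without it). The splicing factor Srsf10 read 138, 159 and 113 against 30.7, 21.2 and 24.9 on one probe set, with an adjusted p of 0.0331 (0.088 without the third array), while its second gave overlapping groups (log2 0.47, adjusted p = 0.837). Smim4 read 107, 70.7 and 74.3 against 47.6, 16.7 and 17.6 (adjusted p = 0.046; 0.104 without it), the latter pair under the floor, and Rabgap1l read 121, 165 and 136 against 24.1, 66.1 and 44.5 (adjusted p = 0.0232; 0.0544 without it). The next genes in order of p-value were not called: Fads1 (-0.93, adjusted p = 0.0505), Nbeal2 (-2.53, adjusted p = 0.0505), Lyl1 (-1.56, adjusted p = 0.0513) and Sgk1 (-1.76, adjusted p = 0.0513). A probe set without a gene name read 346, 474 and 520 against 5.13, 35.6 and 5.54 (log2 -4.09, adjusted p = 0.000554), and was also lower at 100 min (-3.90, adjusted p = 0.000912).

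Leaving out the third SOCS3-/- array brought in 57 further probe sets, 22 higher and 35 lower. Alternative activation and stress genes stood among them. Arg1, the arginase of alternatively activated macrophages, read 119, 177 and 179 in SOCS3+/+ cells and 2645, 2683 and 184 in SOCS3-/- cells, so the third array lay just above the highest SOCS3+/+ array. Its log2 difference was 2.81 (SE 0.88, adjusted p = 0.245) with that array and 4.22 (SE 0.55, adjusted p = 0.0119) without it. Id1, an inhibitor of helix-loop-helix factors, read 46.6, 53.4 and 649 against 722, 726 and 373, and the sign turned within replicate 3 (differences 3.95, 3.77 and -0.80). The scavenger receptor Msr1 read 286, 257 and 997 against 2115, 2164 and 1344 on one probe set and 494, 454 and 1303 against 2833, 3267 and 956 on the other. Its called differences without the third array were 2.71 (adjusted p = 0.0483) and 2.57 (adjusted p = 0.0119).

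Other higher genes that were not called with all 6 arrays but were called without the third were Mmp12 (2.57 and 3.23, adjusted p = 0.0919 and adjusted p = 0.0311), Ccl17 (1.76 and 2.90, adjusted p = 0.389 and adjusted p = 0.0183), Mxd1 (2.27 and 2.80, adjusted p = 0.0505 and adjusted p = 0.0147) and Gbp2b. In the lower direction Pdcd4, a translation inhibitor and tumour suppressor, read 286, 485 and 726 against 16.8, 13 and 270 (-3.20, adjusted p = 0.0586; -4.28, adjusted p = 0.00296, without the third array). The inducible heat shock gene Hspa1b read 1026, 688 and 421 against 123.3, 118 and 347 (-2.85, adjusted p = 0.0119, without it), and its neighbour Hspa1a was called the same way (-1.78, adjusted p = 0.0354). Nbeal2 (-3.07), Sesn1 (-2.62), Prss30 (-2.38) and Cbx6 (-2.37) were also called lower. Over the 22 higher probe sets the median difference within replicates 1, 2 and 3 was 1.95, 2.32 and 0.51, and over the 35 lower ones -1.78, -1.74 and -0.50. These probe sets were called without the third SOCS3-/- array and not called with it. All 6 arrays therefore entered the choice, which favours small differences within replicate 3, and these medians are a description. The sign within replicate 3 was the same for 17 of the 22 and 26 of the 35. Both replicate 3 arrays entered the choice and that sign, so these counts are a description too. Over all 59 higher and 42 lower probe sets called without the third SOCS3-/- array, the medians within replicate 3 were 1.53 and -0.67. The sign within replicate 3 was the same for 54 of the 59 and 33 of the 42.

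**Figure D3:**
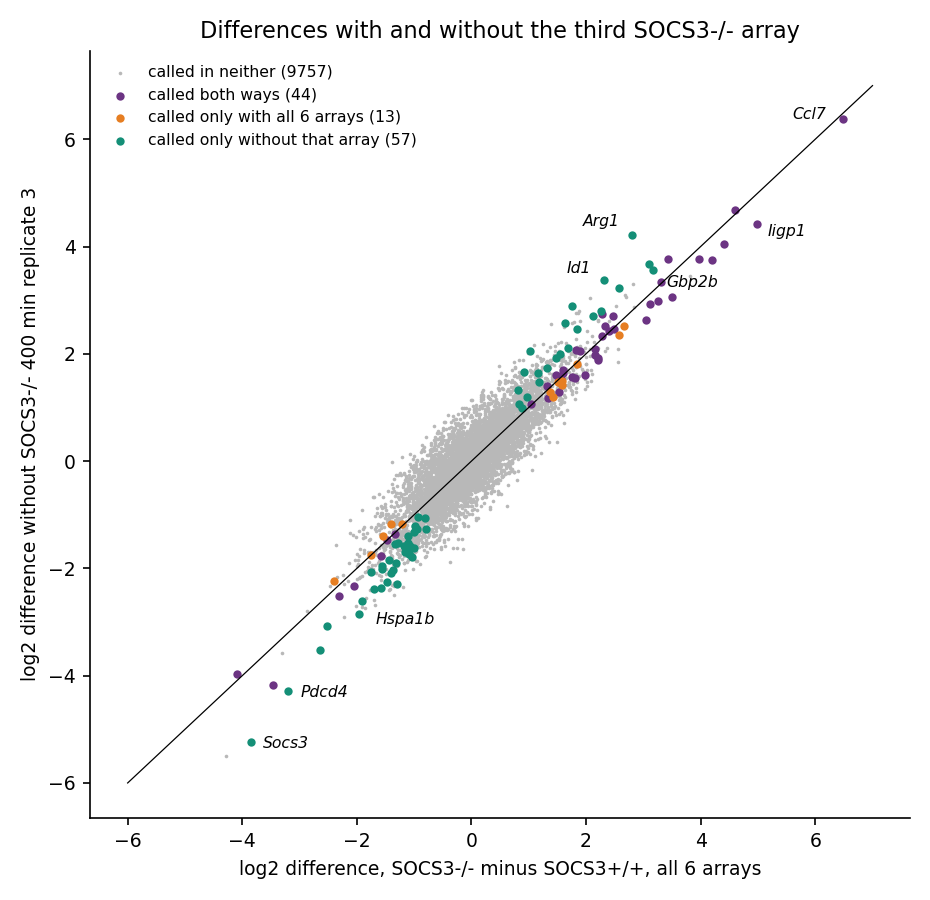
Each point is a tested probe set, with the log2 difference between genotypes at 400 min from all 6 arrays on the horizontal axis and without the third SOCS3-/- array on the vertical axis; the line marks equal values. The 44 probe sets called both ways (purple) lie close to the line, and Socs3, Pdcd4, Arg1 and Id1 lie farther from 0 without that array.

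The other gene lists showed few or no calls. In the alternative activation list of 21 tested genes Igf1 alone was called, lower; its median of 0.50 fell to 0.02 within replicate 3, and without the third SOCS3-/- array 3 members were called higher and 2 lower. The mannose receptor Mrc1 read 2298, 2656 and 242 against 6663, 6368 and 1948 (3.83-fold, adjusted p = 0.0636; the groups overlapped), and the IL-4 receptor Il4ra 11502, 11502 and 9603 against 26429, 25018 and 21532 (2.24-fold, adjusted p = 0.0732). Stab1, a scavenger receptor, lay lower at 4089, 3014 and 1540 against 1483, 1161 and 678 (adjusted p = 0.0629). NF-kappaB and inflammatory cytokine genes had 1 call, Saa3, of 35 (median 0.12). The IL-1 receptor antagonist Il1rn (2.82, adjusted p = 0.162) and the prostaglandin synthase Ptgs2 (2.21, adjusted p = 0.112) were not called.

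Fc receptors and phagocytosis had 1 call of 21 (Fcgr2b; median -0.05), complement and acute phase genes 1 of 21 (Saa3; -0.07), lipid and cholesterol genes 1 of 24 (Ch25h; -0.23), and apoptosis genes 1 of 21 (Bcl2l1). There were 0 calls in 32 lysosome genes (median -0.12), 51 cell cycle genes (-0.15, with 7 wholly below and 0 wholly above the SOCS3+/+ arrays), 22 heat shock genes (0.06) and the 18 tested neighbours of Socs3 on chromosome 11 (0.17). Over all 6851 genes tested 7.41% lay wholly above and 8.14% wholly below. The cell cycle share below, 13.7%, included E2f1, Mcm7 and Prim1, none of which was called.

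**Figure D4:**
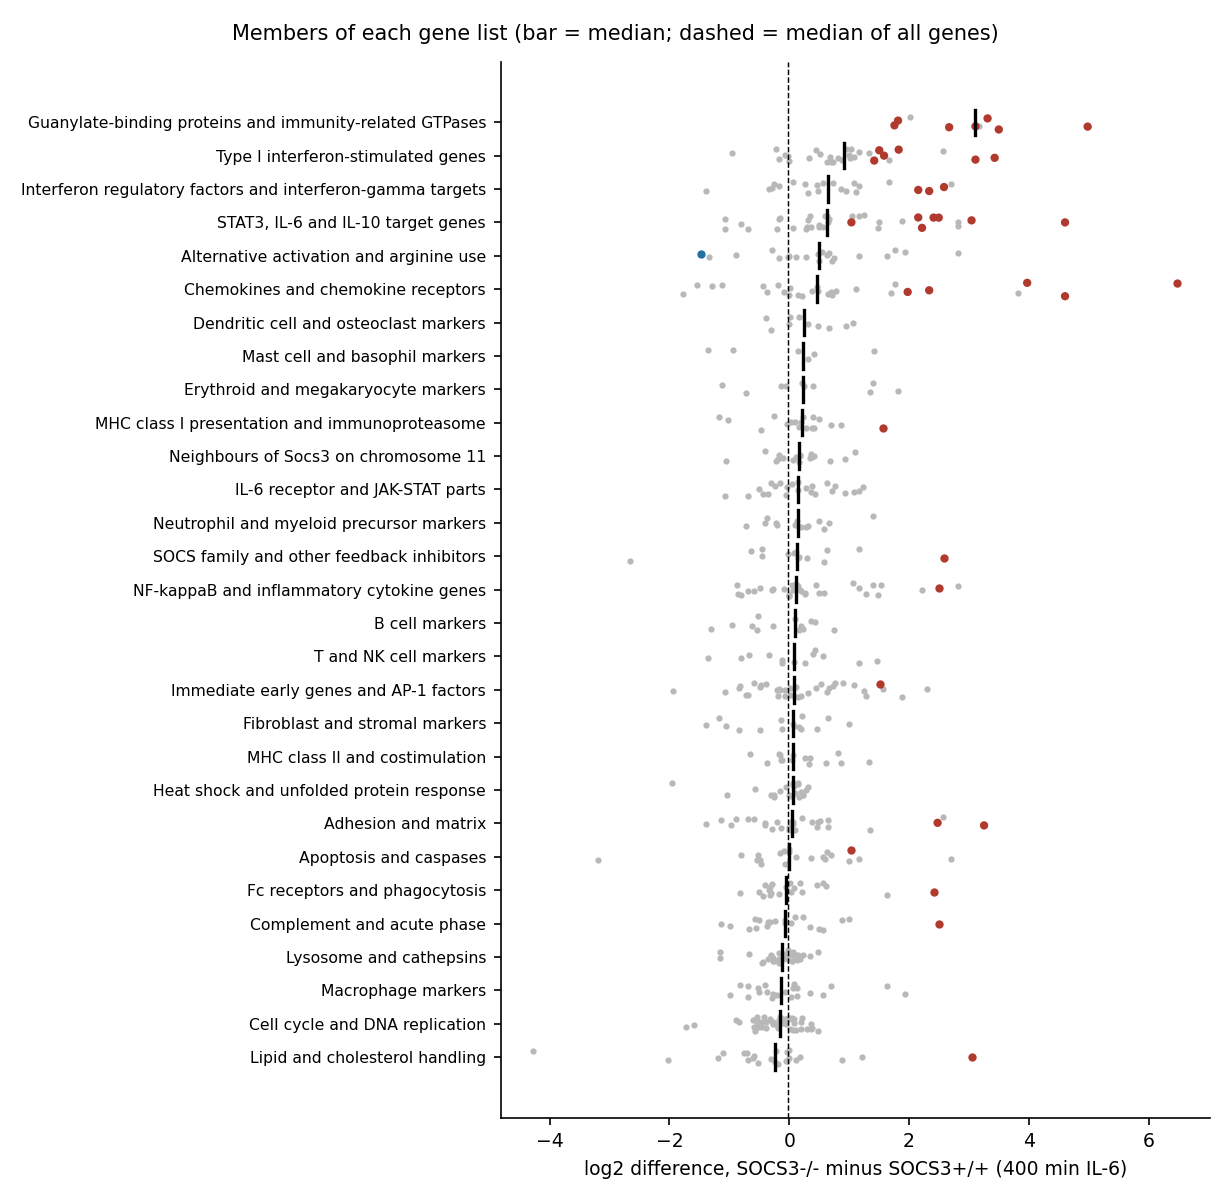
Log2 difference between genotypes at 400 min for each tested member of each gene list, 1 row a list, sorted by median (black bar); the dashed line is the median of all genes, -0.03. Called members are red (higher) or blue (lower), and the GTPase list stands at a median of 3.11.

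By the median, the genotype difference of the called genes was smaller in size before IL-6 than at 400 min. With 2 unstimulated SOCS3+/+ arrays this does not show that it was absent. Of the 57 calls 34 had the same sign in unstimulated cells. Over the 42 higher probe sets with 1 symbol outside X and Y, the median difference was 0.23 unstimulated, 0.80 at 100 min and 2.18 at 400 min, and over the 8 lower ones 0.21, -0.20 and -1.56. The 400 min values chose these probe sets, so the rise to 400 min is a description. Across all probe sets 0 (0%) were called unstimulated by limma, with 614 (6.22%) at an unadjusted p under 0.05, and 10 (0.101%) at 100 min, 8 higher (0.081%) and 2 lower (0.0203%), with 620 (6.28%) at an unadjusted p under 0.05. Of the 57 calls 9 were already called at 100 min, among them Ccl7 (4.15, adjusted p = 5.12e-05), Ccl2 (3.60, adjusted p = 0.0497), Ccl4 (2.5, adjusted p = 0.0137), Jun (2.07, adjusted p = 0.00893), Irf1 (1.78, adjusted p = 0.019) and Cdkn2d (1.41, adjusted p = 0.019), and 1, Rabgap1l, in the opposite direction.

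Levels over time are given for single genes. Ifi47 read 662 and 569 in unstimulated SOCS3+/+ cells, 3149, 2600.0 and 635 at 100 min and 479, 651 and 233 at 400 min. In SOCS3-/- cells it read 392, 317 and 251, then 3783, 3470.0 and 1468, then 4295, 4253 and 2555. At 100 min the genotypes overlapped (0.63, adjusted p = 0.822), and from 0 to 400 min it changed by 3.52 (adjusted p = 0.000196) in SOCS3-/- cells and by -0.16 (adjusted p = 0.958) in SOCS3+/+ cells. Gbp3, Gbp7, Irgm1, Irgm2, Tap1 and Isg15 had genotype differences at 100 min of 0.66, 0.77, 0.53, 0.75, 0.45 and 0.45, none of them called. Irf1 differed already at 100 min, at 1374, 1357 and 911 in SOCS3+/+ cells and 5767, 5352 and 2228 in SOCS3-/- cells.

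Cpt1a and Igf1 fell from their unstimulated level in SOCS3-/- cells. Cpt1a changed by -2.0 (adjusted p = 0.00151) from 0 to 400 min in SOCS3-/- cells and by -0.47 (adjusted p = 0.74) in SOCS3+/+ cells, and Igf1 by -1.43 (adjusted p = 0.00379) and -0.11 (adjusted p = 0.955). A change past the threshold in 1 genotype only does not show a difference between them, so the difference was tested as an interaction. The genotype difference at 400 min minus that in unstimulated cells was called for 4 probe sets (0.0405%), 3 upward (0.0304%) and 1 downward (0.0101%), with 652 (6.61%) at an unadjusted p under 0.05. They were Ccl7 (4.64, adjusted p = 0.00134), Ifi47 (3.68, adjusted p = 0.0198), the shared Tgtp1 and Tgtp2 probe set (4.82, adjusted p = 0.0198) and Rabgap1l (-3.52, adjusted p = 0.0198). Without the third SOCS3-/- array 2 of the 4 were called, Ccl7 (4.53, adjusted p = 0.0114) and the Tgtp1 and Tgtp2 probe set (4.28, adjusted p = 0.049). Ifi47 (3.45, adjusted p = 0.0881) and Rabgap1l (-3.52, adjusted p = 0.0881) were not. With all arrays it was for Cpt1a -1.53 (adjusted p = 0.294) and for Igf1 -1.31 (adjusted p = 0.285).

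Rabgap1l turned direction between the times, from 33.9, 19.2 and 35.6 against 122, 175 and 151 at 100 min (2.31, adjusted p = 0.017) to the lower SOCS3-/- levels at 400 min. Its difference at 400 min minus that at 100 min was -4.06, and that of Cd247 was -4.43; these 2 (0.0203%) were the only calls of that contrast in limma, with 517 (5.24%) at an unadjusted p under 0.05. Without the third SOCS3-/- array neither was called (Rabgap1l -4.06, adjusted p = 0.058; Cd247 -4.26, adjusted p = 0.112).

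**Figure D5:**
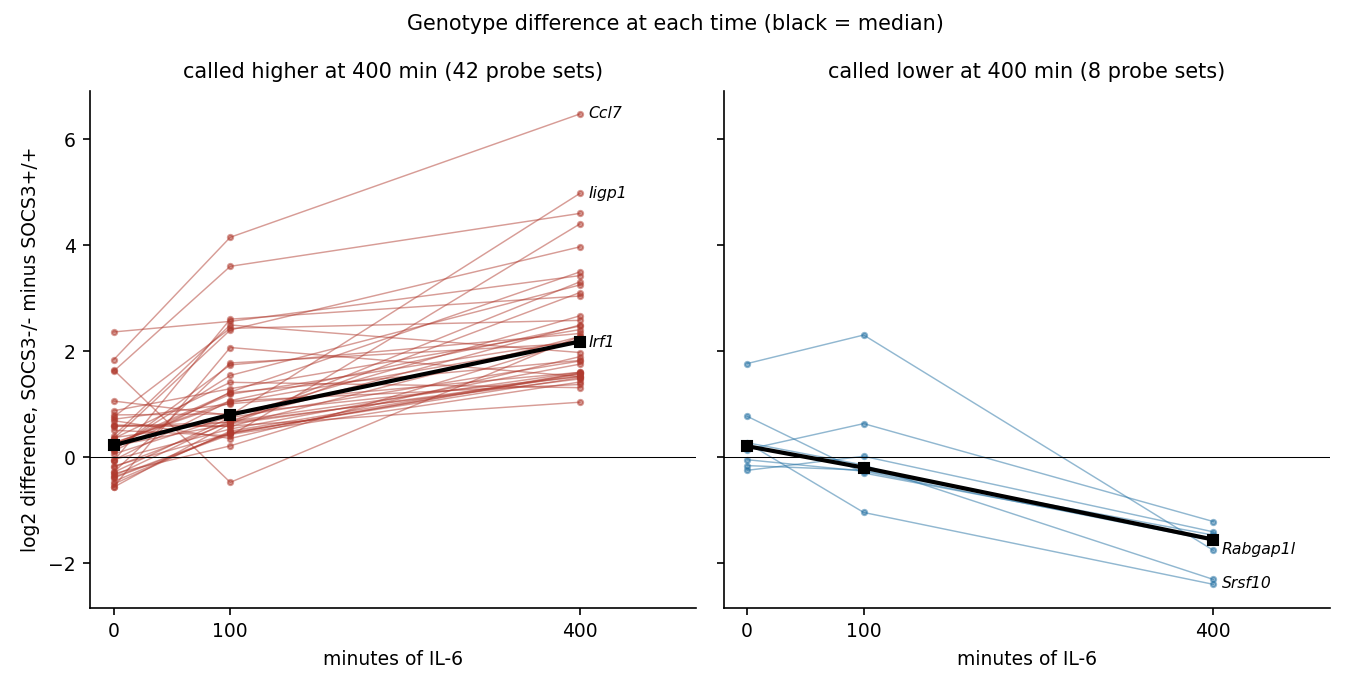
Log2 difference between genotypes (vertical axis) against minutes of IL-6 (horizontal axis) for the probe sets with 1 gene symbol outside X and Y that were called higher (left, 42) or lower (right, 8) at 400 min; each thin line is 1 probe set and the black line the median. The medians run from 0.23 through 0.80 to 2.18 on the left and from 0.21 through -0.20 to -1.56 on the right, and Rabgap1l crosses 0 after 100 min.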

How the data were processed

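Total RNA of bone marrow-derived macrophages was measured on 17 arrays of 12488 probe sets. The deposited values are linear intensities; the software that made them is not stated in any label or header. Their mean after trimming 2% lay between 499.879 and 499.895 on every array, so arrays had been scaled to a common level, while medians ran from 164.25 to 216.95. Because these medians spanned 0.40 on the log2 scale, over a limit of 0.3, quantile normalization was applied. Values under the 10th percentile (22) were set to it before log2; levels printed are normalized intensities before that floor, except the deposited Socs3 values. Probe sets above the 40th percentile on at least 2 arrays were tested (9871; 66 controls were left out). Of all probe sets 10855 had 1 gene symbol, 396 several and 1237 none.

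limma 3.58.1 in R 4.3.3 was fitted to all 17 arrays, with the 6 groups and the replicate number as a block, and p-values were Benjamini-Hochberg adjusted over all probe sets tested. The script was tested on simulated data. Fold changes are on the floored scale and understate low genes. Array number limits the precision. Named genes were the 12 largest called rises and falls (lower ones filled by smallest p), up to 4 per list, up to 6 per direction called only without SOCS3-/- 400 min replicate 3, and the called interactions; other genes were named after their values were seen. The comparison, gene lists and rules were chosen with earlier results of these data known. Alternatives changed the block, arrays, normalization, floor, filter and variance model.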

Additional observations from a re-analysis of the deposited data

Results flagged for a closer look

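The genotype difference changed with time, by a test of that change in limma, for 4 probe sets between unstimulated cells and 400 min. The change on the log2 scale was 4.64 for Ccl7, 3.68 for Ifi47, 4.82 for the probe set shared by Tgtp1 and Tgtp2, and -3.52 for Rabgap1l. Between 100 and 400 min it was -4.06 for Rabgap1l and -4.43 for Cd247, a T cell receptor subunit whose second probe set showed overlapping groups at 400 min. Without the array labelled SOCS3-/- 400 min replicate 3 only Ccl7 and the Tgtp1 and Tgtp2 probe set kept their call, both for the change from unstimulated cells.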

How the results depend on the processing

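The 57 calls at 400 min became 36 without the replicate number as a block, 86 with the floor at the 20th percentile, 123 with a stricter filter, 189 with a trended and robust variance model, 137 with array weights and 109 with every replicate 3 array left out. In limma on only the 6 arrays at 400 min 0 were called, with 818 unadjusted p-values under 0.05, so every call rests on the spread pooled over the series. Leaving out 1 array in turn gave 16 to 101. At 400 min these were 16 without SOCS3+/+ replicate 2, 33 and 35 without its replicates 1 and 3, 17 and 28 without SOCS3-/- replicates 2 and 1, and 101 without SOCS3-/- replicate 3. Of 30 named called probe sets 9 kept their call in all 17 such fits: Ccl2, Ccl7, Ch25h, Gbp2, Gbp3, Ifi47, Iigp1, Irf1 and Tap1.

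The 101 calls without SOCS3-/- 400 min replicate 3 became 55 without the block, 0 on only the 400 min arrays (886 unadjusted), 66 with median centring, 204 with the stricter filter, 252 with the trended model and 155 with array weights. The 4 calls of change from unstimulated cells became 0 without the block (531 unadjusted), 9 with the stricter filter, 24 with the trended model and 7 without replicate 3, and 1 to 7 when 1 array was left out. The 2 calls of change from 100 min became 1 with the higher floor, 0 with the stricter filter or without replicate 3, 4 with the trended model, and 0 to 5 when 1 array was left out. At 100 min 10 calls became 4 without the block and 21 without replicate 3, and unstimulated 0 became 1 without replicate 3. Dnajb9 turned from -0.57 to 0.08 without replicate 3. The cause of these shifts was not tested.

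The replicate numbers were not shown to pair the samples: deviations of same-numbered 400 min arrays correlated at 0.0816, 0.0060 and 0.10. In both genotypes replicates 1 and 3 correlated best with their own number and replicate 2 did not. The block was kept because the comparison was defined with it; without it 36 probe sets were called, 35 of them among the 57.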
